A study of Mus musculus with 2 samples.

Results

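The genes described here were 195 detected long intergenic non-coding RNA (lincRNA) genes of mouse macrophages, outside a set of well-known long non-coding RNAs. They were chosen by their measured level: a gene had the type lincRNA in GENCODE M21, lay on an autosome and had a TPM (read count corrected for transcript length and library depth) of at least 1 in both libraries. Malat1, Neat1, Rmrp, Lncpint, Tug1, Pvt1, Dleu2, Kcnq1ot1, Miat, Mir155hg, Mir17hg, Mir22hg, Ptgs2os, Ptgs2os2, Gas5, Zfas1, Epb41l4aos and every gene whose name begins with Snhg were left out. The annotation held 5194 autosomal lincRNA genes outside that set, so 4999 were not detected. It held 5854 lincRNA genes and 55536 genes of every type.

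The study sequenced total RNA, after ribosomal RNA depletion, from the nucleoplasmic fraction of bone-marrow-derived macrophages (BMDM) of C57BL/6J mice. The cells had received Lipid A, the part of lipopolysaccharide that TLR4 recognises, at 100 ng/ml for 40 min, and both libraries belonged to this 1 group. Sex and age were not collected. Biological replicates 1 and 2 share their donor identifier per the labels, and their spread may therefore be smaller than that between animals. RNA input (1 µg in replicate 1, 500 ng in replicate 2) and replicate cannot be told apart. No unstimulated library was analysed here, so every value is a level and none is a response. Replicate 1 held 19630046 expected counts and replicate 2 held 18434601. The 10 macrophage markers were all detected, with a summed level of 4399 TPM in replicate 1 and 2908 TPM in replicate 2. Among 43 marker genes of 8 further cell types only 2 passed that threshold, 1 of T cells and 1 of endothelium, 13 were at 0 in both libraries, and the summed level was 36.7 and 24.4 TPM. In such bulk RNA, fewer cells of a type and less RNA per cell cannot be told apart.

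LincRNAs are transcripts without a known long reading frame, most of them capped, and often spliced and polyadenylated, that are made from loci separate from coding genes. Many stay in the nucleus, are made at low levels and have half-lives shorter than those of mRNAs. Some act on chromatin or on neighbouring genes, some are hosts from which microRNAs are cut, and most have no assigned function. Of the 195 genes, 187 carried a placeholder name of the Gm, RIKEN or clone type.

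Several of the genes enclose or overlap microRNAs, and for these the mature sequence is the part of the transcript with a known product. Mir142hg (chr11:87755577-87757270, plus strand) is the host of miR-142, a microRNA characteristic of blood cells. 6720427I07Rik (chr13:48532905-48546500, minus strand) spans 3 let-7 hairpins. 4833445I07Rik (chr9:108567533-108569174, plus strand) spans miR-191 and miR-425, and 2900076A07Rik (chr7:81523550-81531498, plus strand) spans miR-1839. The sequences are the 5′ to 3′ mature forms from RefSeq (GRCm38.p6), with the seed, bases 2 to 8, in capitals.
miR-142a-5p: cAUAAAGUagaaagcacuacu
miR-142a-3p: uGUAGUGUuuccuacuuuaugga
let-7a-5p: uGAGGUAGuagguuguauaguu
let-7f-5p: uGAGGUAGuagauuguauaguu
let-7d-5p: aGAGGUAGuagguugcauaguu
miR-191-5p: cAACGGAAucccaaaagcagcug
miR-425-5p: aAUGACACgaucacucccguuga
miR-1839-5p: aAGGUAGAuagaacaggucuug
let-7a-5p and let-7f-5p share the seed GAGGUAG and so does let-7d-5p, whereas the other 5 sequences each have a seed of their own. Mir142hg had 53.8 TPM in replicate 1 and 16.96 TPM in replicate 2, from 86 and 27 expected counts. 6720427I07Rik had 7.88 and 6.44 TPM, a closer match between the libraries. 4833445I07Rik had 16.7 and 6.86 TPM, and 2900076A07Rik had 4.83 and 2.67 TPM. TPM was higher in replicate 1 for each of these 4 host genes, as for 180 of the 195. The same held for most genes of any type, 12783 of the 14527 with a mean of at least 10 counts. After scaling of the counts, as described further on, the log2 ratio of replicate 1 over replicate 2 was 1.51 for Mir142hg, 0.77 for 4833445I07Rik, 0.41 for 2900076A07Rik and -0.21 for 6720427I07Rik. The hairpins of miR-142, miR-191 and miR-425 had an effective length of 0 and were listed at 0, so the values are those of the host transcripts and not of the mature microRNAs. Gm27019 and Gm26532, at 25.9 and 18.1 TPM and at 22.5 and 19.3 TPM, overlap the hairpins of miR-29b-1 and miR-24-2 by 2 bases each: the first ends where its hairpin begins and the second begins where its hairpin ends. Gm37233 (9.88 and 8.05 TPM) spans miR-5103, and Dubr (8.01 and 5.59 TPM) has miR-6363 on its opposite strand.

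Abundance was spread very unevenly over the 195 genes. The median was 5.06 TPM in replicate 1 and 2.89 TPM in replicate 2 (3.98 ± 1.53, SD, n = 2), against 8.64 and 6.12 TPM for the 8810 detected protein-coding genes. By mean TPM, 38 genes lay from 1 to 2, 71 from 2 to 5, 40 from 5 to 10, 40 from 10 to 100, and 6 at 100 or above. The genes took 1.19% of the expected counts of annotated genes in replicate 1 and 1.11% in replicate 2. Within the lincRNA class, where the left-out genes hold most reads, their share was 7.05% and 7.66%. Among autosomal lincRNA genes outside the named set they took 96.5% and 96.6% of the counts. Of lincRNA genes outside the named set, 4096 were listed at 0 counts in replicate 1 and 4246 in replicate 2. A count of 0 allows up to 3 counts, which at the members' median count and median TPM correspond to 0.108 and 0.0834 TPM. The limit is higher for shorter genes, and the undetected genes had a median length of 859 bases, against 1555 for the members. These limits cover counting error only.

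Depth was modest for most of the genes. Replicate 1 gave a median of 141 expected counts per gene and replicate 2 a median of 104. A mean of at least 10 counts was reached by 191 genes and at least 100 by 111. The authors' credibility interval spanned a median of 34.8% of the TPM in replicate 1 and 39.6% in replicate 2. Just inside the threshold were 4632404H12Rik (1.68 and 1.01 TPM), Gm26869 (1.60 and 1.02 TPM) and Gm16337 (1.63 and 1.02 TPM). Just outside lay Gm26516 (2.07 and 0.99 TPM), AI480526 (0.98 and 1.81 TPM) and Gm26899 (0.98 and 1.05 TPM). Membership at this edge rests on differences of hundredths of a TPM.

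**Figure D1:**
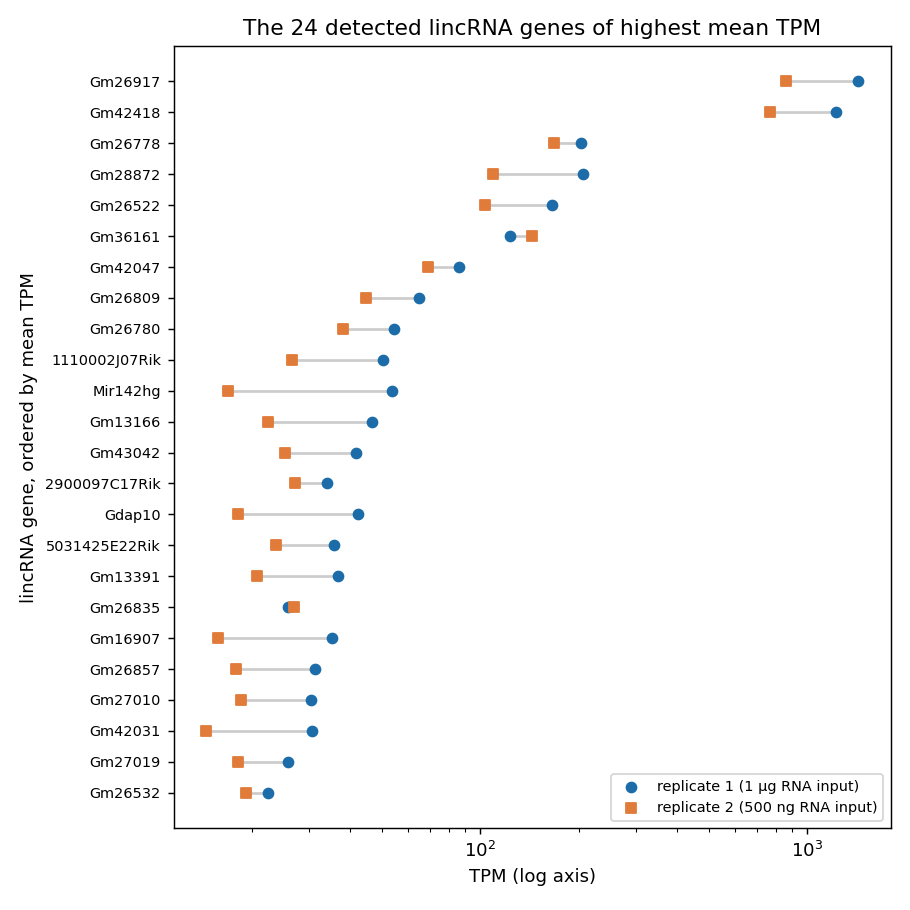
TPM (log axis) of the 24 detected lincRNA genes with the highest mean TPM, with circles for replicate 1, squares for replicate 2 and a line joining both values of a gene. Gm26917 and Gm42418 stand apart at the top, and in this plot only Gm36161 and Gm26835 have the higher TPM in replicate 2.

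Gm26917 and Gm42418 lie head to tail on chromosome 17 and held more reads than all other genes of the group together. Gm26917 (chr17:39843013-39846341, plus strand) had 1427 TPM in replicate 1 and 859 TPM in replicate 2 (1143 ± 402, SD, n = 2), from 92132 and 76273 expected counts. Gm42418 (chr17:39846958-39848788, plus strand) had 1223 and 770 TPM (996 ± 320, SD, n = 2), from 42725 and 35308 expected counts. Together they took 57.9% of the members' counts in replicate 1 and 54.9% in replicate 2. The mouse reference genome carries ribosomal RNA sequence in this stretch of chromosome 17. The annotation places the ribosomal RNA gene CT010467.1 (chr17:39846353-39848827, minus strand) over Gm42418, and 96.3% of the 31-base words of Gm42418 also occur in it. CT010467.1 itself had 867 TPM in replicate 1 and 163 TPM in replicate 2, so its libraries lay farther apart than those of Gm42418. Gm26917 shared no 31-base word with any other annotated gene and had a GC content of 69.8%, against a median of 46.5% over the 195 genes. In replicate 1, 95.1% of its TPM was assigned to the single-exon model, and in replicate 2 all of it. How much of their signal is ribosomal RNA left after depletion was not tested.

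Of the 10 genes that came next by mean TPM, 9 overlapped another annotated gene. Gm26778 (chromosome 14) had 203 TPM in replicate 1 and 168 TPM in replicate 2, from 15692 and 17241 expected counts. All of its 3805 exon bases lie on the opposite strand of the exon of Kctd12, an auxiliary subunit of GABA-B receptors, which had 732 and 479 TPM. The strand setting of the counting is not given in the sources used here, so reads of Gm26778 and Kctd12 cannot be told apart. Gm26780 had 54.4 and 38.1 TPM and overlaps an exon of Abr (70.5 and 51.6 TPM) on the opposite strand. That overlap is 28 bases long. Gm26522 (chr7:88278787-88283529, minus strand) had 165 and 103 TPM and lies within Ctsc, the gene of the lysosomal protease cathepsin C, on the opposite strand. Ctsc had 718 and 385 TPM, and no exon base is shared between both genes. Gm28872 had 206 and 109 TPM from only 35 and 13 expected counts.

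Gm28872 (chr4:132270056-132270213, plus strand) shows how a TPM can be high with few reads. It is 158 bases long, and its effective length was 7.91 in replicate 1 and 4.16 in replicate 2, the only one of the 195 under 50 in either library. Of its 158 bases, 134 are the reverse complement of Rnu11, the U11 small nuclear RNA of the minor spliceosome. The whole model is printed 5′ to 3′ on the plus strand of mm10 (GENCODE M21), with the part antisense to U11 in capitals.
Gm28872: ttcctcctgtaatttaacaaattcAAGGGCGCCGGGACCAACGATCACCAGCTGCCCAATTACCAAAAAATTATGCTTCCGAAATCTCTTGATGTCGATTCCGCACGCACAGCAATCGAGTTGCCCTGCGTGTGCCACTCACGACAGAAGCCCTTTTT
Rnu11 was listed at 0 in both libraries, with an effective length of 2.36 and 1.09. Of the 195 genes, 13 had an effective length under 200 in at least 1 library.

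For several of the other abundant genes, much of the sequence also occurred in other annotated genes. Gm36161 (chr13:120010390-120018931) had 123 TPM in replicate 1 and 144 TPM in replicate 2, and 81.6% of its 31-base words occur in other genes, 737 of them in all. Gm42047 (chr8:121833247-121841178) had 86.1 and 69.3 TPM, with 72.3% of its words found in 17 other genes and a place within Gm20388, a coding model spanning several genes (3.72 and 5.54 TPM). Gm26809 (chr6:18844220-18847360) had 64.9 and 44.7 TPM with 47.4% of its words shared, and it overlaps the lincRNA gene Gm20186. Gm13166 had 46.8 and 22.4 TPM with 82.0% shared. 2900097C17Rik, single-exon in both of its models, was among the 8 genes with the most counts, at 3441 and 3653, or 33.98 and 27.2 TPM. 1110002J07Rik (chr10:66912489-66920258, minus strand) had 50.3 and 26.6 TPM, shared 1.41% of its words and overlapped no other gene. The 8 genes with the most counts took 74.3% of the members' counts in replicate 1 and 75.3% in replicate 2.

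How much of the group had no overlapping annotated gene and little sequence shared with annotated transcripts was asked next. A set of 68 genes (34.9%) overlapped no other annotated gene on either strand and shared at most 10% of their 31-base words. Their median was 4.24 TPM in replicate 1 and 2.85 TPM in replicate 2, somewhat below the 5.06 TPM and close to the 2.89 TPM of all 195. Of the 46 genes with a mean TPM of 10 or more, 10 were in this set. Beside Gm26917 and 1110002J07Rik these were Gm13391 (36.6 and 20.8 TPM), AU022793 (29.0 and 11.1 TPM), Gm14461 (29.1 and 10.1 TPM) and Gm13431 (13.3 and 18.5 TPM). The remaining 4 were Gm13710 (17.4 and 12.4 TPM), F730311O21Rik (15.7 and 10.5 TPM), Gm44053 (13.8 and 11.3 TPM) and Gm44751 (14.0 and 9.92 TPM). Gm44751 begins just downstream of Ctsc on the same strand. The set took 46.7% of the members' counts in replicate 1 and 44.3% in replicate 2, most of them from Gm26917 (92132 and 76273). Words were compared with annotated transcripts only. Gm26917 lies in the stretch of chromosome 17 with ribosomal RNA sequence, and how much of its signal is ribosomal was not tested. This set was defined after the values were seen and is a description.

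The place of the genes relative to coding genes was not part of the rule that chose them. The rule used TPM, however, and the strand setting is unknown. Reads of an overlapping coding gene could thus be counted toward a member, so choice and overlap may not be independent. How far this shaped the shares was not tested. Of the 195, 64 (32.8%) overlapped a protein-coding gene, against 418 (8.36%) of the 4999 undetected genes. The largest such class overlapped a coding exon on the opposite strand, with 31 genes (15.9%) against 206 (4.12%). A further 21 (10.8%) overlapped a coding gene on the opposite strand without sharing an exon base, against 128 (2.56%). On the same strand 8 (4.10%) did so, against 46 (0.920%). These 8 include Gm42047, through the coding model Gm20388 that spans several genes. Exon overlap on the same strand was seen in 4 genes (2.05%), against 38 (0.760%). Without overlap, 23 (11.8%) started within 5 kb of a coding start and pointed away from it, against 338 (6.76%). Another 12 (6.15%) lay within 5 kb downstream of a coding gene on its strand, against 146 (2.92%). The remaining 96 (49.2%) lay apart, against 4097 (82.0%). In all, 48 of the 195 (24.6%) started within 5 kb of a coding start, against 571 (11.4%), and the median distance between starts was 23034 against 65835 bp. Genes are not replicates, so these shares carry no test.

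**Figure D2:**
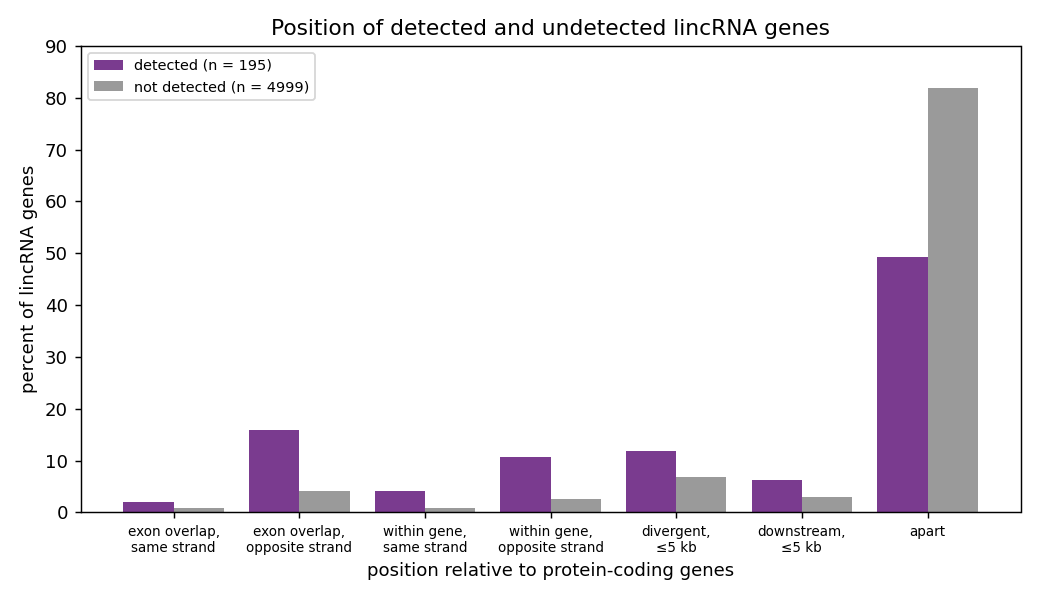
Percent of lincRNA genes in each position class relative to protein-coding genes, for the 195 detected genes (purple) and the 4999 undetected genes (grey). The classes labelled as within a gene hold every overlap with a coding gene that shares no exon base. The detected genes have the higher bar in every class overlapping or near a coding gene, and 49.2% of them lie apart, against 82.0% of the undetected genes.

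The coding partner, meaning the gene that decided the class or else the nearest one, was detected for 157 of the 195 genes (80.5%), against 2144 (42.9%) of the undetected. In the divergent class all 23 partners were detected, and in the class with exon overlap on the opposite strand 30 of 31. Of those 31, 4 genes had over 90% of their exon bases covered, 6 over 50% and 15 under 10%. Gm26699 (15.8 and 9.39 TPM) was covered to 99.7% by Luc7l2, a protein of the U1 splicing particle (272 and 186 TPM). Gm15628 (17.1 and 9.18 TPM) was covered to 56.9% by Lcp1, which encodes the actin-bundling protein L-plastin (229 and 123 TPM). Of the 31 genes, 5 had a higher mean TPM than their partner. Gm26835, antisense to the zinc-finger gene Hivep2, was one, at 25.8 and 26.9 TPM against 4.86 and 4.84 TPM. With the strand setting unknown, reads of both genes cannot be told apart over the shared bases. Detection of an overlapping member may therefore not be independent of its partner.

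Divergent genes start near a coding start and run the other way. The 5 opposite-strand partners within 5 kb that had the highest mean TPM, overlapping or not, belonged to Gm26778, Gm26699, Gm11110, Gm14963 and 4930589L23Rik. The first 3 overlap an exon of their partner on the opposite strand and are not in the divergent class. Gm26778 and Gm26699 lie within the span of their partners, Kctd12 and Luc7l2. Gm14963 starts 120 bp from Ehd1, which acts in endocytic recycling, and had 2.85 and 2.56 TPM against 279 and 174 TPM for Ehd1. 4930589L23Rik starts 396 bp from Fnip2, a folliculin partner, and had 3.17 and 1.32 TPM against 159 and 113 TPM. In both pairs the lincRNA lay far below the coding gene in each library. 5031425E22Rik, starting 172 bp from the chromatin regulator Kmt2e, was the most abundant of the divergent class, at 35.8 and 23.8 TPM against 25.1 and 16.2 TPM. It was thus slightly above its partner in both libraries. Over the 23 genes of the class the median was 3.17 TPM in replicate 1 and 2.20 TPM in replicate 2, against 30.2 and 17.9 TPM for the partners, and 3 had the higher mean TPM of the pair.

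Head-to-head starts were also found between members. 1110002J07Rik and Gm26576 start 44 bp apart on opposite strands of chromosome 10, and had 50.3 and 26.6 TPM and 1.23 and 1.24 TPM. Gm19325 and Gm26767 start 876 bp apart on chromosome 9, with 1.26 and 1.11 TPM and 4.46 and 2.82 TPM. In each pair the same gene was the higher in both libraries. Within 5 kb these were the only 2 such pairs.

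Lipid A at this time is known to raise immediate-early and early inflammatory genes, so members within 50 kb of such genes were listed. The response and macrophage lists were drawn up with earlier results of these data known. They gave 14 members (7.18%), against 57 undetected genes (1.14%). The most abundant was Gm26669, with 23.2 TPM in replicate 1 and 8.68 TPM in replicate 2, whose exon bases lie to 92.5% opposite those of Zfp36l1, an RNA-binding protein of mRNA decay (64.3 and 36.4 TPM). 1300014J16Rik starts 2850 bp from Zfp36l1 on the other side and had 2.22 and 1.80 TPM. 2310001H17Rik lies 28600 bp from Cd69, an early activation antigen, and had 17.3 and 10.4 TPM against 9.14 and 7.93 TPM. It was the only one of the 14 with a higher TPM than its listed neighbour in each library.

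Members beside transcription factor genes were few and low. D730003I15Rik, 6415 bp from the stress-induced factor Atf3 (229 and 141 TPM) and on the opposite strand, had 9.61 and 4.25 TPM. Gm37168, 49139 bp from Atf3, had 2.72 and 2.03 TPM. 4930563J15Rik, 26334 bp from the immediate-early factor Egr2 (112 and 63.5 TPM), had 2.37 and 1.03 TPM. On the ratio of scaled counts described further on, D730003I15Rik (0.90) and 4930563J15Rik (0.68) were higher in replicate 1, and Gm37168 (-0.06) was nearly even. Gm26510 and Gm20703 flank Tgif1, a homeobox repressor (283 and 194 TPM), at 7.63 and 6.08 TPM and at 4.12 and 2.00 TPM. Gm26664 starts 2276 bp from the immediate-early gene Ier2 (123 and 78.0 TPM) and had 1.49 and 1.84 TPM. Gm26792, 22902 bp from Nfkb2, the gene of the NF-kB precursor p100 (82.8 and 67.0 TPM), had 1.72 and 1.09 TPM. Gm44659, 45351 bp from the atypical IkB gene Bcl3 (30.95 and 15.8 TPM), had 3.63 and 2.36 TPM.

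Beside effector genes the picture was similar. Gm11110 starts 617 bp from Tnfsf9, the gene of 4-1BB ligand, overlaps it on the opposite strand and had 1.85 and 1.27 TPM against 757 and 534 TPM. Gm17705, 32195 bp from the cytokine gene Tnf (1263 and 930 TPM), had 1.90 and 1.37 TPM and starts 222 bp from Prrc2a, its nearer divergent partner. Gm34643 lies 22520 bp upstream of Acod1, the enzyme that makes itaconate (144 and 106 TPM), on the same strand, and had 4.13 and 2.78 TPM. These neighbours were thus far more abundant than the lincRNAs beside them in each library. Between the libraries, 8 of the 14 lincRNAs had a scaled log2 ratio of replicate 1 over replicate 2 above 0 and 6 below 0.

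**Figure D3:**
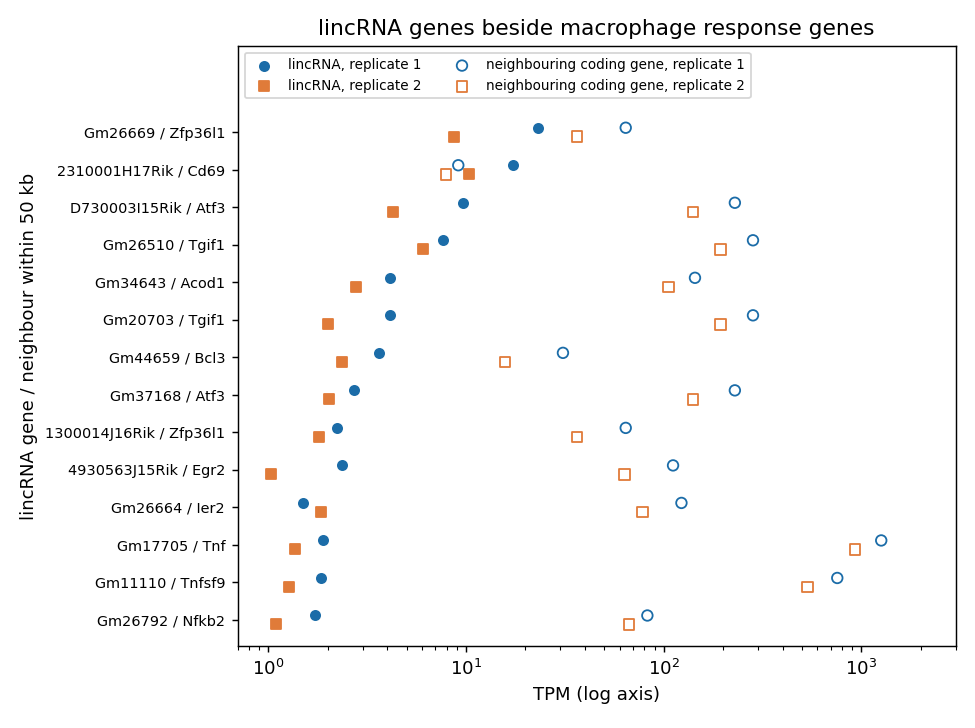
TPM (log axis) of the 14 lincRNA genes within 50 kb of a listed response or macrophage gene (filled) and of that gene (open), with circles for replicate 1 and squares for replicate 2. In 13 of the 14 pairs the coding gene lies to the right in both libraries, and in the pair with Cd69 it lies to the left.

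A further list of macrophage long non-coding RNAs was drawn up, and 5 of its genes were members. Gm26917 and Gm42418 were on it, but both lie in the stretch of chromosome 17 with ribosomal RNA sequence. A part of theirs in macrophages was not tested. The remaining members on the list were Mirt1, Gm14005 and AW112010. Mirt1 (chr19:53443230-53464796) had 7.55 TPM in replicate 1 and 4.82 TPM in replicate 2, from 331 and 287 counts. Gm14005, also called Morrbid and known in mice for its effect on the pro-apoptotic gene Bcl2l11, had 4.67 and 3.15 TPM from 25 and 19 counts. Bcl2l11 itself had 392 and 252 TPM. AW112010, an RNA known in mouse macrophages to be translated, had 2.82 and 1.36 TPM from 31 and 21 counts. From the FASTQ files Gm14005 had 26.5 and 19.3 TPM, far above the alignment-based values, Mirt1 had 3.75 and 2.73 TPM and AW112010 had 1.32 and 0.914 TPM. The other listed genes do not have the type lincRNA in the annotation, so they could not meet the rule at any level. U90926 is typed there as protein-coding and the others as antisense, with a further Mirt2 model typed as miscellaneous RNA. Dnmt3aos had 3 and 0.94 TPM, Ttc39aos1 (lincRNA-EPS, a repressor of immune genes) 0.97 and 0.71 TPM, U90926 0.15 and 0.12 TPM and Gm16685 0 and 0.05 TPM. Mirt2 was listed at 0 in both.

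Promoter windows of RefSeq (GRCm38.p6, 250 bases before to 50 after a start) were matched by symbol for 65 members and gave 84 windows. They were searched on both strands for NF-kB (a 10-base motif, in a strict form and in a looser form with 5 free central bases), AP-1 (TGANTCA), PU.1 (GAGGAA), CRE (TGACGTCA) and TATAAA. Only 36 of the 84 windows had a RefSeq start within 100 bases of the GENCODE start, and the shares are over all 84. AP-1 letters were in 11.9% of the members' windows, against 7.81% of all 32851 windows, and PU.1 letters in 31% against 28.3%. CRE letters were in 1.19% against 1.79% and TATAAA in 10.7% against 13.6%. The strict NF-kB form was in 0 of 84 windows against 0.411% of all, and the looser form, which includes the strict one, in 40.5% against 50.8%. The windows of D730003I15Rik, Gm34643, Gm26510 and Mirt1 are shown because these genes lie beside response genes or belong to the macrophage list and because their RefSeq start lies within 100 bases of the GENCODE start. Each is written 5′ to 3′ on the gene's strand, with AP-1 and PU.1 letters of either strand in capitals. They are chr1:191224204-191224503 (plus), chr14:103012625-103012924 (plus), chr17:70924949-70925248 (minus) and chr19:53464747-53465046 (minus).
D730003I15Rik: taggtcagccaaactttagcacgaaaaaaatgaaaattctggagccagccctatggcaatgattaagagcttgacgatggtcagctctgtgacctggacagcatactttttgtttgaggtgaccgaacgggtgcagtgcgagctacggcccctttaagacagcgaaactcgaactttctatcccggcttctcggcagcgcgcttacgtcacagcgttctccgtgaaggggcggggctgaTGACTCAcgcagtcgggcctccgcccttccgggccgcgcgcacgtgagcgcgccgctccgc
Gm34643: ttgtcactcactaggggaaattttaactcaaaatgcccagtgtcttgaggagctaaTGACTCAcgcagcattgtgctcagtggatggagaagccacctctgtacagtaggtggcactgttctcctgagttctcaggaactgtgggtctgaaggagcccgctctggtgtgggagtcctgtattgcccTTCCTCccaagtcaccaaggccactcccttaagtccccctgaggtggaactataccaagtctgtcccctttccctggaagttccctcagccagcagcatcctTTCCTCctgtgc
Gm26510: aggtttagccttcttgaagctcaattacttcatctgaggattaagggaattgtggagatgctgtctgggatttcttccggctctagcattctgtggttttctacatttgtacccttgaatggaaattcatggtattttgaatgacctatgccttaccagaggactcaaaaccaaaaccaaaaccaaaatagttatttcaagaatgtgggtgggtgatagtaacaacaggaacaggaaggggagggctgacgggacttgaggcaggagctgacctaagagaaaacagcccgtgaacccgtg
Mirt1: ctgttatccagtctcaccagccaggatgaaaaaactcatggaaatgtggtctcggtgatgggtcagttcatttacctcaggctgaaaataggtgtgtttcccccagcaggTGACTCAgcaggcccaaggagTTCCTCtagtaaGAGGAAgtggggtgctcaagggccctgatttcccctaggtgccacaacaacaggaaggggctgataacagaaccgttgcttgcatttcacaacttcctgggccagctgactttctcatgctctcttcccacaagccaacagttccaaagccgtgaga
The first holds 1 AP-1 match, the second and the last 1 AP-1 and 2 PU.1 matches each, and that of Gm26510 none. A match describes letters and not binding.

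Most genes had a simple structure. A single transcript model was annotated for 128 of the 195, and 67 had 2 or more, up to 10 in Gm14005. Of the 67, 51 had over 50% of their TPM in 1 model in both libraries, and 57 had the same leading model in both. All models were single-exon in 27 genes (13.8%), against 285 (5.70%) of the undetected. Over 50% of the TPM went to single-exon models in 38 genes in both libraries. Single-exon genes had a median of 6.68 TPM in replicate 1 and 4.34 TPM in replicate 2, and spliced genes 4.78 and 2.86 TPM. By class, 6 of the 12 downstream genes were single-exon, 7 of the 23 divergent and 1 of the 31 with exon overlap on the opposite strand. The median length of the 195 genes was 1555 bases, against 859 for the undetected genes.

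Sequence shared with other genes was measured next, because reads from shared sequence can be assigned to either gene. Of the 195 genes, 50 shared no 31-base word with another annotated gene, 59 shared over 10% and 25 over 50%, with a median of 2.73%. The authors' second set of estimates, made from the FASTQ files, gave 174 of the 195 a TPM of at least 1 in both libraries. The FASTQ-derived mean TPM was a median of 0.757 times the alignment-based one. It was over 2 times as high in 25 genes, 10 of which shared over 10% of their words. It was under 0.5 times in 32 genes, 13 of which did so. The same counts were not made over all genes, so these ratios cannot be read as particular to the members.

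The genes at the ends of this ratio, among those with a mean of at least 50 counts, shared from 6.21% to 99.3% of their words with other genes. Gm10076, of whose words 82.2% occur in the ribosomal protein gene Rpl41, was listed at 0 in both FASTQ-derived tables, against 17.5 and 22.1 TPM by alignment. Gm26699, antisense over Luc7l2 and with 98.5% of its words in it, had 4.02 TPM in replicate 1 and was listed at 0 in replicate 2 from the FASTQ files, against 15.8 and 9.39 TPM. Gm38025 had 7.65 and 5.20 TPM from the FASTQ files, against 22.1 and 13.4 TPM by alignment. Gm26778, antisense over Kctd12, had 78.2 and 75.3 TPM, against 203 and 168 TPM. These 4 were thus lower in the FASTQ-derived tables in each library. So was Kctd12 itself, outside the group, with 304 and 224 TPM from the FASTQ files, against 732 and 479 TPM by alignment. At the other end Gm26809 had 646 and 696 TPM from the FASTQ files, against 64.9 and 44.7 TPM. Gm12840 had 95.2 and 137 TPM, against 15.9 and 9.16 TPM, and it and Gm26809 share most of all with the lincRNA gene Gm20186. Gm48799 had 19.2 and 11.98 TPM, against 2.03 and 1.59 TPM. Gm14221 had 61.8 and 58.7 TPM, against 4.04 and 2.49 TPM, with 6.21% of its words shared. For these 8 genes the authors' 2 sets of estimates thus gave different levels, most of all for Gm14221 and for Gm10076.

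**Figure D4:**
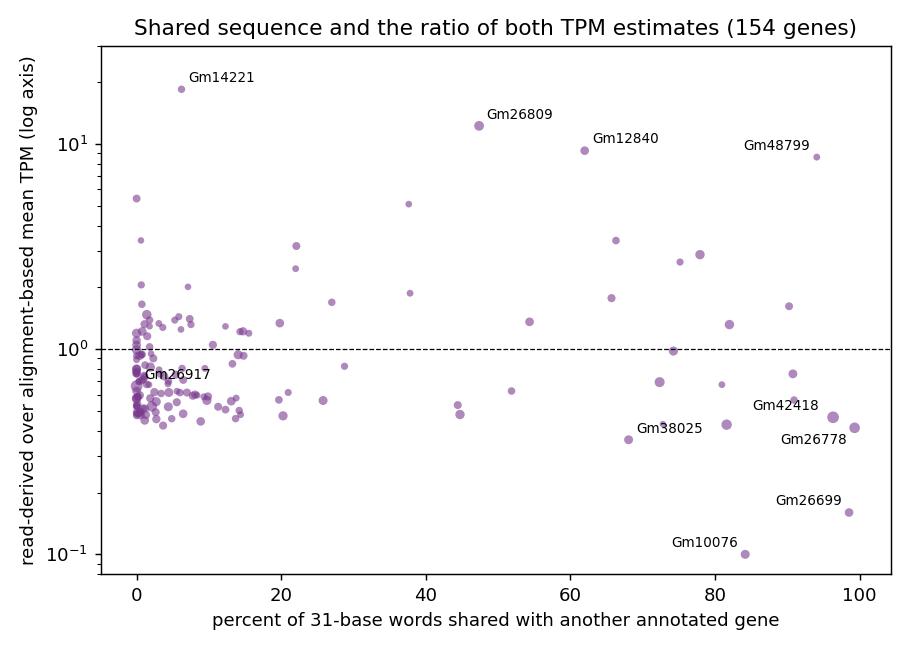
FASTQ-derived over alignment-based mean TPM (log axis; the ratio of 0 of Gm10076 is drawn at 0.1) against the percent of 31-base words shared with another gene, for the 154 members with a mean of at least 50 counts. Larger points have a higher mean TPM. The labelled genes are the 4 highest and 4 lowest ratios, and Gm26917 and Gm42418.

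The libraries were compared as the log2 ratio of replicate 1 over replicate 2 of TMM-scaled CPM (edgeR, prior count 2). With 1 library on each side there is no test. Over the 191 members with a mean of at least 10 counts the median ratio was 0.17, with the middle 50% from -0.13 to 0.45, and 121 lay above 0. Over all 14527 genes with that depth the median was 0.004. Past 2-fold, 10 of the 191 members (5.24%) were higher in replicate 1, against 3.22% of all genes, and 3 (1.57%) were higher in replicate 2, against 1.76%. In either direction it was 13 members (6.81%), against 4.98% of all genes. With at least 100 counts required, 2 of 111 members (1.8%) were past 2-fold toward replicate 1, against 0.867% of all genes, and 0 toward replicate 2, against 0.3%. The order turned with FASTQ-derived counts, where 8 of 193 members (4.15%) and 8.99% of 23416 genes were past 2-fold in either direction. Toward replicate 1 alone it did not turn there, with 7 members (3.63%) against 2.81% of all genes. Toward replicate 2 it was 1 member (0.518%) against 6.18%. The order in either direction also turned without a count filter, where it was 14 of 195 members (7.18%) and 11.4% of 22499 genes. Both settings thus set the members beside more genes than the 14527. On the unscaled TPM, 180 of the 195 members were higher in replicate 1. So were 177 of the 191 members with at least 10 counts, against 12783 of all 14527 genes. These counts include a shift of TPM over all genes, whose median log2 ratio of TPM + 1 was 0.36 (0.49 in the 191 members).

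**Figure D5:**
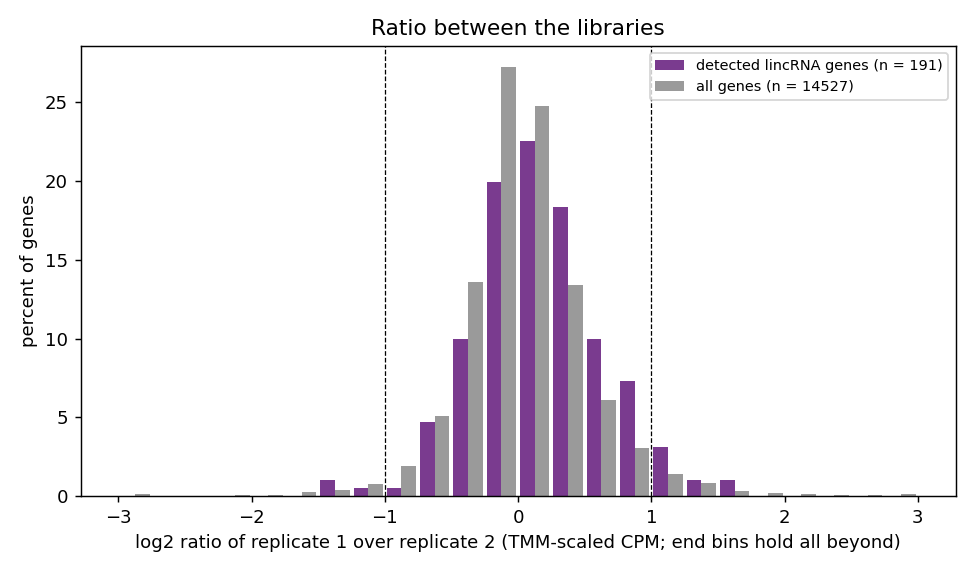
Distribution of the log2 ratio of replicate 1 over replicate 2 in bins of 0.25, for the 191 detected lincRNA genes (purple) and all 14527 genes (grey), with dashed lines at 2-fold. The end bins hold everything beyond. The purple bars lie slightly to the right of the grey ones, with medians of 0.17 and 0.004.

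The members that differed most between the libraries, with a mean of at least 50 counts, were as follows. Gm17300 had 166 counts in replicate 1 and 47.3 in replicate 2 (log2 ratio 1.68). It overlaps Snhg3, in which 41.7% of its 31-base words occur. On the opposite strand it shares exon positions with the snoRNA genes Snora73a and Snora73b and, over 19 bases, with Rcc1, the exchange factor of Ran. Mir142hg had 86 and 27 counts (1.51), Gm13833 had 89 and 30 (1.41), and Ino80dos, which starts 1589 bp from the INO80 subunit gene Ino80d, had 115 and 50.3 (1.07). On the FASTQ-derived counts these ratios were 1.07, 1.10, 0.25 and 0.57, so the excess in replicate 1 was smaller for each. Toward replicate 2, Gm13431, 13649 bp from the start of the prostaglandin synthase gene Ptgs1, had 60 and 114 counts (-1). E430024I08Rik had 47 and 75 counts (-0.75), Gm36161 had 3454 and 5290 (-0.71) and Gm10076 had 67.4 and 98.3 (-0.63). On the FASTQ-derived counts these differences were smaller too, at -0.52 for Gm13431, -0.19 for E430024I08Rik and -0.45 for Gm36161, and Gm10076 was listed at 0. In these ratios, too, replicate and amount of input RNA cannot be told apart.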

How the data were processed

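Total RNA-seq of the nucleoplasmic fraction was analysed from 2 libraries of 1 group. Per the file headers, the authors' gene and transcript tables made from an alignment to the transcriptome hold expected counts, TPM (scaled to the same total over all features of a table) and FPKM (scaled by length and assigned fragments). The credibility bounds of TPM were used as the signal range of a value within 1 library, per the file headers. A further deposited transcript table made from the FASTQ files holds estimated counts and TPM, which were summed per gene. Per the labels, the build was mm10 with GENCODE M21. For the aligner, the quantifiers and their strandedness, a name or version is not given in the sources used here. Rows that match no annotated gene (0.672% of the expected counts in replicate 1 and 0.196% in replicate 2) were left out of shares and ratios.

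The members and all lists were chosen with earlier results of these data known. TPM of at least 1 in both libraries chose the members, so their levels are a description without a test, and with 1 group there is no contrast. Positions came from the GENCODE M21 annotation and 31-base words from its transcripts, on either strand. Log2 ratios between the libraries used TMM-scaled CPM (edgeR 4.0.16, R 4.3.3, prior count 2) of genes with a mean of at least 10 expected counts, rounded to whole numbers, and the step was tested on simulated data. Other steps used Python 3.11.15 with pandas 2.3.3 and matplotlib 3.10.9. Genes were named by rule: the 12 highest by TPM and 8 by counts, the 4 at each end of both ratios, 3 on each side of the threshold, members within 50 kb of a listed response gene, and the macrophage list. Members with the 5 most abundant coding partners that start within 5 kb on the opposite strand, overlapping or not, were also named by rule. Others, such as the microRNA hosts and the stand-alone genes, were named after their values were seen. Alternatives were other thresholds and estimates of level (pseudocounts 1 and 0.1 for ratios of TPM), DESeq2 1.42.0 size factors, other count minimums and distances, and leaving out each library.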

Additional observations from a re-analysis of the deposited data

How the results depend on the processing

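The number of members depended most on the measure and the threshold: 195 became 129 at a TPM of at least 2, 66 at 5, 307 with the posterior mean TPM, 343 with TPM rescaled without short effective lengths, and 781 with the FASTQ-derived TPM, 174 of which were among the 195. Rescaling gave a median of 12.2 TPM in place of 3.98. The share of lincRNA counts, 7.35%, was 12.5% with FASTQ-derived counts and 3.21% without Gm26917 and Gm42418. The median log2 ratio of 0.17 was 0.49 with TPM + 1, 0.62 with TPM + 0.1 and 0.086 with FASTQ-derived counts. Over all genes these medians were 0.36, 0.49 and -0.006. Members past 2-fold toward replicate 1 (10) numbered 26 and 42 on those scales, where 3.89% and 11.6% of all genes passed, and 2 with at least 100 counts, where 0.867% did. Toward replicate 2 (3) they numbered 0 and 1, where 0.268% and 0.799% of all genes passed, and 0 with at least 100 counts, where 0.3% did. Without a count filter 5 members passed (2.56%, against 5.44% of all genes). With FASTQ-derived counts 1 member passed (0.518%, against 6.18% of all genes). The 48 genes within 5 kb of a coding start were 23 within 1 kb and 139 within 50 kb, and of 60 that share exon positions with another gene, 13 do so on the same strand. Leaving out 1 library gave 204 to 257 members, medians of 2.89 to 5.06 TPM, shares of 7.05% to 7.66%, and 58 to 61 genes with over 50% of their TPM in 1 model in place of 51, since only 1 library then had to meet the rule. Without members that overlap another gene or share over 10% of their words, an alternative chosen after seeing the data, the median was 3.55 TPM. The excess of members over all genes past 2-fold in either direction turned round with FASTQ-derived counts (4.15% and 8.99%) and without a count filter (7.18% and 11.4%). Toward replicate 1 alone it did not turn round with FASTQ-derived counts (3.63% and 2.81%). The compared genes changed as well: all genes numbered 23416 and 22499 in place of 14527, and members 193 and 195 in place of 191. Without a count filter, 14 members were past 2-fold, against 13 in the main setting. Among named genes, Gm12840 turned from a log2 ratio of 0.37 to -0.57 and Gm26809 from 0.04 to -0.36 with FASTQ-derived counts. The cause of the differences between estimates was not tested. No paired analysis was possible because all libraries belong to 1 group.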

Other observations

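Lists of known lncRNAs outside the group set the scale for its values. Malat1 had 26845 TPM in replicate 1 and 22087 TPM in replicate 2, and Neat1 had 1989 and 1014 TPM, against 1427 and 859 TPM for Gm26917. In the FASTQ-derived tables the order of Gm26917 and Neat1 was the reverse, with 857 and 653 TPM for Gm26917 and 847 and 590 TPM for Neat1. Lncpint had 281 and 192 TPM and Mir155hg 254 and 181 TPM, both above Gm26778 in each library. Pvt1 (3.12 and 1.86 TPM) and Mir17hg (2.79 and 2.73 TPM), both in the left-out set, were below the group's median in both libraries.

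The median log2 ratio of replicate 1 over replicate 2 was 0.25 in the 30 members that overlap a coding exon on the opposite strand and 0.05 in their partners. In the 18 that overlap a coding gene on the opposite strand without a shared exon base it was 0.13, and -0.08 in their partners. In the 8 that do so on the same strand it was 0.15 and -0.03. In the 66 that lie apart it was 0.17, and 0.05 in their partners. In the 23 divergent genes it was 0.10, and 0.09 in their partners, and in the 11 downstream genes -0.01 and -0.02. These medians were compared after their values were seen and carry no test.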
